A study of Mus musculus with 6 samples.

Results

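Messenger levels of the Schlafen family were read in mouse CD8 T cells from OT-I animals, with 3 CD73 KO and 3 WT libraries. The members are the 7 mouse Slfn genes Slfn1, Slfn2, Slfn3, Slfn4, Slfn5, Slfn8 and Slfn9, found by symbol among the 49671 genes of the count table. OT-I cells carry a transgenic T cell receptor that recognises the ovalbumin peptide SIINFEKL, and both genotypes share it. CD73, encoded by Nt5e, is a surface enzyme that makes adenosine from AMP. Per the labels' protocols and the design text, spleen CD8 T cells of either genotype were given peptide daily (10 ng/mL) over 5 days, with IL-7 and IL-15 at 5 ng/mL each, were replated after 48 hours, and live cells were sorted for RNA. The labels call this treatment Exhaustion for all 6 libraries, and give no age, sex, CD73 allele or strain background. No label ties a library to an animal or a culture, so errors and p-values cover the spread among these libraries, which may be technical.

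Schlafen proteins are found in mammals in short, intermediate and long forms. In mice, Slfn1 and Slfn2 are short, Slfn3 and Slfn4 intermediate, and Slfn5, Slfn8 and Slfn9 long, the long ones with a helicase-like end. Many Schlafen genes are induced by type I interferon, and in T cells the family is known for restraint of growth. The elektra mutation of Slfn2 in mice costs T cells their quiescence, and the human long member SLFN11 cleaves tRNA.

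The 3 CD73 KO libraries held 10202128 to 19382950 counts and the 3 WT libraries 6934150 to 13039990. Levels are in CPM, counts relative to the library total scaled with TMM factors, so that 1 count equals 0.0531 to 0.142 CPM. Nt5e itself had 3.67, 8.44 and 8.46 CPM in CD73 KO replicates 1, 2 and 3, and 22.5, 5.21 and 37.4 CPM in WT replicates 1, 2 and 3. The library labelled WT replicate 2 thus lay within the CD73 KO range, and the fold changes of the 6 tested members and the medians of the interferon pathway, effector and quiescence lists are given with and without it. For other named list genes a value without 1 library stands where it moved the fold change by over 1.5 times. The T cell list was abundant: Cd3e, Cd3g, Cd8a, Cd8b1 and Trac summed to 3157 to 3415 CPM in CD73 KO, against 2779 to 2974 in WT. Of 6 macrophage and monocyte markers, Lyz2, Csf1r, C1qa and Spi1 were at 0 counts in all 6 libraries, and the list summed to 10.1 to 12.8 CPM in CD73 KO, against 8.81 to 9.55 in WT, nearly all of it Cd68. Neutrophil and B cell lists (4 markers each) summed to at most 0.213 CPM in any library, with S100a8, Elane, Ms4a1 and Pax5 at 0, and the 2 red cell markers were at 0. The 2 NK cell markers summed to 1.54 to 3.72 CPM in CD73 KO, against 1.14 to 4.68 in WT. The 2 markers of plasmacytoid dendritic cells summed to 5.19 to 11.3 CPM in CD73 KO, against 5.98 to 10.2 in WT, with Siglech at 0. Cd4 was at 0.159 to 0.385 CPM in CD73 KO, against 0 to 0.711 in WT. The part of other cell types in the Schlafen values was not tested, and in bulk RNA fewer cells of a type and less RNA per cell cannot be told apart.

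The family was chosen by the fold changes of CD73 KO over WT in these same libraries, so its fold changes are given as descriptions. Of the 7 genes, 6 passed the filter on low counts, and Slfn4 did not. In the edgeR quasi-likelihood fit over 12242 genes, 0 of the 6 passed an adjusted p of 0.05, where 0.0572% of all tested genes passed, and 2 (Slfn1 and Slfn8) had an unadjusted p under 0.05 on the higher side, where 5.75% of tested genes did. DESeq2 called 1 member, Slfn1, and called 0.646% of genes higher and 0.81% in either direction. Without a filter on low counts edgeR called 3 members higher (Slfn1, Slfn2 and Slfn8), where it called 1.05% of genes higher. Slfn1 was also the 1 tested member whose libraries did not overlap between genotypes, where 7.56% of tested genes did so with CD73 KO higher and 7.61% with CD73 KO lower. Nothing is read from these counts, since the same contrast chose the family. All 6 fold changes lay above 0, with a median log2 fold change of 0.64, while 52.3% of all tested genes lay above 0 with a median of 0.01.

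All 7 genes lie in 1 cluster on chromosome 11. Promoters are shown for the long members with detected RNA and the short members, because they differ in whether the letters that interferon factors bind are present. The windows come from RefSeq on GRCm38.p6, the assembly that mm10 names, and run from 250 bases before to 50 bases after the start of transcription. All 7 genes were in the table. Letters are given 5′ to 3′ on the strand of the gene, and capitals mark a match to the core of the interferon-stimulated response element, TTTCNNTTTC, read on both strands, where N is any base. Slfn5, Slfn8 and Slfn9 hold a match, and Slfn1 and Slfn2, the members of highest level per length, hold none. The windows are chr11:82951852-82952151 (Slfn5, plus strand), chr11:83020761-83021060 (Slfn8, minus strand), chr11:82991781-82992080 (Slfn9, minus strand), chr11:83116570-83116869 (Slfn1, plus strand) and chr11:83064862-83065161 (Slfn2, plus strand).
Slfn5: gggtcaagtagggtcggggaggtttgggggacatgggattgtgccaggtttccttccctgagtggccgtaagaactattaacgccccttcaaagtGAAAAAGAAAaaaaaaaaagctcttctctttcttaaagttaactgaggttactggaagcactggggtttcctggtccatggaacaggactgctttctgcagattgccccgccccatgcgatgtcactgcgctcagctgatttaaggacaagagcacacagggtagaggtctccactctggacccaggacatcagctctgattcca
Slfn8: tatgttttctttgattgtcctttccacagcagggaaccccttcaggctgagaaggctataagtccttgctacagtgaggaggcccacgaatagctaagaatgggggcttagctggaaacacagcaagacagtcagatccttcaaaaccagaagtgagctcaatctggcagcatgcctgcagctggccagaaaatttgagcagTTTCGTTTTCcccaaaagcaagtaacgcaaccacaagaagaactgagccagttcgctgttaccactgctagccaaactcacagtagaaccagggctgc
Slfn9: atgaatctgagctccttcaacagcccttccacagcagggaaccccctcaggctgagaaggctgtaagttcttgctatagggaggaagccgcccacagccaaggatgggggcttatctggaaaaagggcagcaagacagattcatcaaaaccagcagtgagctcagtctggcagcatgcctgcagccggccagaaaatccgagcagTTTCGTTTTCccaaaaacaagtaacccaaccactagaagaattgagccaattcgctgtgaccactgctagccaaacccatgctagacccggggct
Slfn1: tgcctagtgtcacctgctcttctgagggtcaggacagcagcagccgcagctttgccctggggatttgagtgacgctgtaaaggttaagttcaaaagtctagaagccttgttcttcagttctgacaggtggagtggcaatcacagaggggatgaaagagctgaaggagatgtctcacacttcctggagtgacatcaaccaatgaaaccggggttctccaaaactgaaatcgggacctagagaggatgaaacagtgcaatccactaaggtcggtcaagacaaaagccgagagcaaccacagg
Slfn2: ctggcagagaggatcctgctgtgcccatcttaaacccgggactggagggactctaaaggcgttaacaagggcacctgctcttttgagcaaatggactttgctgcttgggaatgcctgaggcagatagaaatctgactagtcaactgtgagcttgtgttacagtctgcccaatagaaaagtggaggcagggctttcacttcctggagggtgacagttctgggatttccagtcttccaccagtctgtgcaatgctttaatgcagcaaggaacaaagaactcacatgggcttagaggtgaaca

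The matches in Slfn8 and Slfn9 have the same letters, TTTCGTTTTC, on the strand of the gene, at positions -48 to -39 and -45 to -36 from the start. Slfn8 has another annotated start further into the gene, and the same site falls at -136 to -127 from it. The RefSeq start of Slfn1 lies outside its GENCODE transcripts. The printed window of Slfn5 lies wholly inside its GENCODE gene, which begins at 82951349, before the window. The match in Slfn5 lies on the opposite strand at -155 to -146 and reads GAAAAAGAAA as printed, followed by a run of A. Slfn3 and Slfn4 hold none. Of all 32851 promoter windows of this length, 3.44% hold a match. Counted by gene, with a match in any window of the gene, 3.99% of 27025 genes do. Of the interferon effector genes listed below, 11 of the 20 found in the table do. The gamma-activated site, TTCNNNGAA, was in 0 of the 7 members, so it overlapped no match of the other motif in them. It was in 8.30% of all windows and in 9.55% of all genes. A match describes letters, and its absence says only that they are not in this window.

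Among the short members, Slfn1, whose forced expression in mouse thymocytes slows growth, set the genotypes apart most clearly. Slfn1 (ENSMUSG00000078763, chromosome 11, 83116849 to 83122670) had 102, 106 and 78.7 CPM in CD73 KO, against 32.3, 46.7 and 48.3 in WT. Every CD73 KO library lay above every WT library. The means were 95.4 ± 14.5 CPM in CD73 KO, against 42.5 ± 8.82 in WT (SD, n = 3 each), a log2 fold change of 1.18 ± 0.17 (SE), or 2.26-fold. Without the library labelled WT replicate 2 it was 1.25, and over the fits that left out 1 library it ran from 1.00 to 1.29.

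Slfn2 (ENSMUSG00000072620, chromosome 11, 83065112 to 83070678), the quiescence gene of the family, had 91.4, 151 and 161 CPM in CD73 KO, against 85.6, 87.3 and 119 in WT. CD73 KO replicates 2 and 3 were above all WT libraries, while CD73 KO replicate 1 lay within the WT range. The log2 fold change was 0.47 ± 0.22 (SE), and 0.39 without the library labelled WT replicate 2. The library of lowest Slfn2 in CD73 KO, replicate 1, was one of the 2 of highest Slfn1, so the ratio of Slfn1 to Slfn2 CPM was 1.11, 0.697 and 0.490 in CD73 KO replicates 1, 2 and 3, against 0.377, 0.535 and 0.405 in the WT libraries. These ratios overlapped between genotypes. An antisense gene, Gm20234, overlaps Slfn2 and runs past its end, shares no exon positions with it, and had 2.65 ± 0.869 CPM in CD73 KO, against 1.51 ± 0.574 in WT (SD, n = 3 each).

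The intermediate members were low or at the floor. Slfn3 (ENSMUSG00000018986, chromosome 11, 83191330 to 83215154), studied mainly in rat intestinal epithelium, had 17.4, 21.3 and 18.6 CPM in CD73 KO, against 18.1, 15.1 and 14.5 in WT. The groups overlapped through CD73 KO replicate 1 and WT replicate 1. The log2 fold change was 0.26 ± 0.16 (SE), 0.21 without the library labelled WT replicate 2 and 0.17 without CD73 KO replicate 2. Slfn4 (ENSMUSG00000000204, chromosome 11, 83175186 to 83190216), a gene known from mouse macrophages, had 5, 5 and 3 counts in CD73 KO and 1, 2 and 1 counts in WT. With the detection floor set at 3 counts, equal to 0.159 to 0.427 CPM, it is given as not detected in WT and as at or barely above the floor in CD73 KO. The 95% Poisson intervals reached 0.0595 to 0.843 CPM over the CD73 KO libraries and 0.00197 to 0.792 CPM over the WT libraries, which overlap and cover counting error only.

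**Figure D1:**
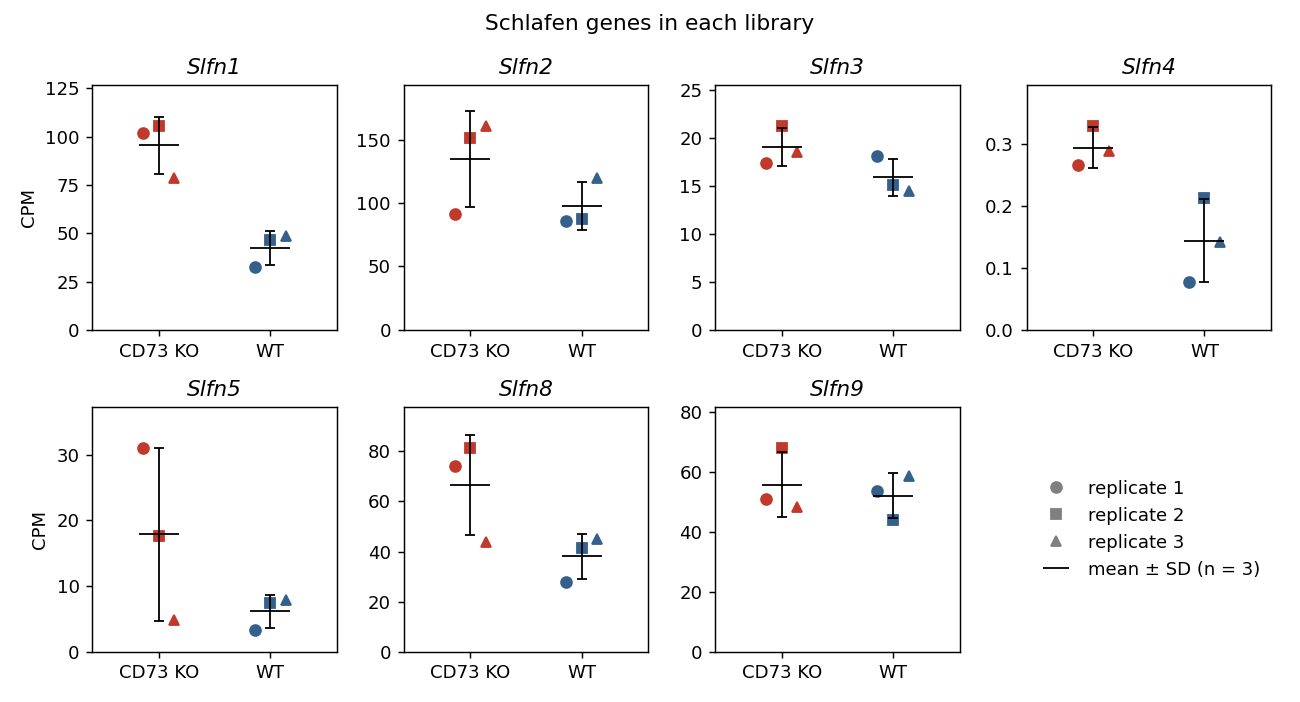
Level of each of the 7 Schlafen genes in CPM on a linear axis from 0, with CD73 KO libraries left and WT libraries right, a symbol per replicate number, and the mean ± SD (n = 3) in black. The Slfn1 libraries do not overlap (78.7 to 106 CPM in CD73 KO, 32.3 to 48.3 CPM in WT), the Slfn5 values of CD73 KO spread from 4.81 to 31.1 CPM, and the Slfn4 points stand for 1 to 5 counts.

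The long members differed among themselves. Slfn5 (ENSMUSG00000054404, chromosome 11, 82951349 to 82964840), a long member with no close copy in the cluster, had 31.1, 17.7 and 4.81 CPM in CD73 KO, against 3.26, 7.45 and 7.82 in WT. CD73 KO replicates 1 and 2 were above all WT libraries, and CD73 KO replicate 3 lay within the WT range. Its highest and lowest CD73 KO libraries differed 6.48-fold, the widest spread of the 6 tested members, against 2.40-fold within WT. The log2 fold change was 1.59 ± 0.70 (SE) and rested on single libraries: it was 0.91 without CD73 KO replicate 1, 2.02 without CD73 KO replicate 3, and 1.76 without the library labelled WT replicate 2. The antisense gene Slfn5os, which shares exon positions with it, was at 0 counts in all 6 libraries.

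Slfn8 (ENSMUSG00000035208, chromosome 11, 83002158 to 83020810) had 74.0, 81.6 and 43.7 CPM in CD73 KO, against 27.8, 41.6 and 44.9 in WT. As for Slfn5, CD73 KO replicates 1 and 2 stood above all WT libraries and CD73 KO replicate 3 lay among them. The log2 fold change was 0.82 ± 0.26 (SE), and 0.88 without the library labelled WT replicate 2. Slfn9 (ENSMUSG00000069793, chromosome 11, 82978390 to 82991830), the neighbour of Slfn8 and its closest copy among the 7, had 50.7, 68.0 and 48.3 CPM in CD73 KO, against 53.6, 43.8 and 58.6 in WT. The groups were mixed, with a log2 fold change of 0.10 ± 0.16 (SE) that turned to -0.01 without the library labelled WT replicate 2 and to -0.07 when CD73 KO replicate 2 was left out. The ratio of Slfn8 to Slfn9 CPM was 1.46, 1.20 and 0.906 in CD73 KO, against 0.519, 0.949 and 0.767 in WT. Only CD73 KO replicates 1 and 2 had more Slfn8 than Slfn9 counts, and the ranges overlapped.

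**Figure D2:**
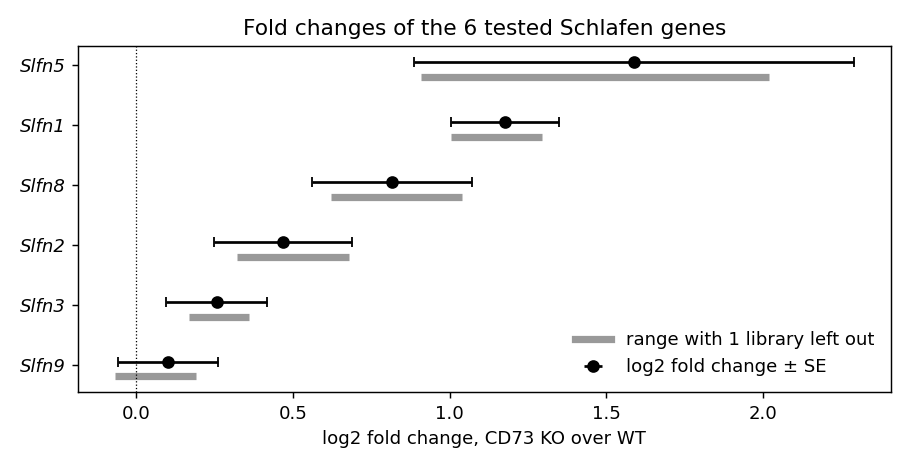
Log2 fold change of the 6 tested Schlafen genes, CD73 KO over WT, with its SE (black) and the range over the 6 fits that each left out 1 library (grey). Slfn5 has the largest value, 1.59, and a wide range from 0.91 to 2.02, Slfn1 keeps to 1.00 to 1.29, and the range of Slfn9 crosses 0.

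Slfn8 and Slfn9 are near copies, and reads can be split between them. Their longest GENCODE transcripts matched at 92.6% identity over 3498 bases, and both matched the pseudogene Slfn10-ps, which lies beside Slfn8, at 92.2%. Of the 50-base stretches in Slfn8 transcripts, 14.6% also occur in another Slfn gene, 9.30% in Slfn9 and 10.1% in Slfn10-ps. For Slfn9 the share was 11.2%, for Slfn3 and Slfn4, which matched at 97.1% over 896 bases, 7.39% and 8.15%, for Slfn2 4.27% and for Slfn1 0.606%. Slfn5 shared 0 such stretches with another Slfn gene and 3.68% with transcripts of other genes. Slfn3 shared 10.2% of its stretches with transcripts outside the family. Slfn10-ps was counted at 15.6, 15.0 and 6.44 CPM in CD73 KO, against 8.93, 11.6 and 10.7 in WT, with a log2 fold change of 0.27 ± 0.30 (SE). It was lowest in CD73 KO replicate 3, as was Slfn8 among the CD73 KO libraries, and its fold change was 0.06 without CD73 KO replicate 1, 0.11 without CD73 KO replicate 2, 0.56 without CD73 KO replicate 3 and 0.15 when WT replicate 1 was left out.

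With the counts of Slfn8, Slfn9 and Slfn10-ps added into 1 feature, which does not depend on how reads were split among them, the sum was 140, 165 and 98.4 CPM in CD73 KO, against 90.3, 97.0 and 114 in WT. The sum had a log2 fold change of 0.42 ± 0.18 (SE), about midway between those of Slfn8 and Slfn9. CD73 KO replicate 3 again lay within the WT range. Slfn3 and Slfn4 added together had 0.27 ± 0.16 (SE), close to Slfn3 alone. The other Slfn genes of the table were at or near 0: Slfn14 had 0 or 1 counts per library in CD73 KO and 0 to 2 in WT, and Slfnl1, the related gene on chromosome 4, had 0 counts in CD73 KO and 0 to 2 in WT.

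Levels between genes can be compared only per length, here in CPM per kb of exon. The order was the same in both genotypes: Slfn2, Slfn1, Slfn8, Slfn9, Slfn3, Slfn5, Slfn4. Slfn2 averaged 80.9 ± 22.6 CPM per kb in CD73 KO and 58.5 ± 11.4 in WT, and Slfn1 51.2 ± 7.79 in CD73 KO and 22.8 ± 4.73 in WT (SD, n = 3 each). The 2 short members did not separate in CD73 KO, where Slfn2 ran from 54.9 to 96.7 and Slfn1 from 42.2 to 56.6 CPM per kb, whereas in WT the lowest Slfn2 library, at 51.4, lay above the highest Slfn1 library, at 25.9. Slfn8 averaged 16.2 ± 4.89 CPM per kb in CD73 KO and 9.32 ± 2.22 in WT, and Slfn9 9.33 ± 1.81 in CD73 KO and 8.72 ± 1.26 in WT, and their ranges overlapped in both genotypes. Slfn3, at 5.59 ± 0.591 CPM per kb in CD73 KO and 4.66 ± 0.565 in WT, lay below every Slfn9 library of its genotype. Slfn5 was lower again at 2.82 ± 2.08 CPM per kb in CD73 KO and 0.976 ± 0.400 in WT, and Slfn4 stood at 0.0743 ± 0.00819 in CD73 KO and 0.0364 ± 0.0170 in WT.

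**Figure D3:**
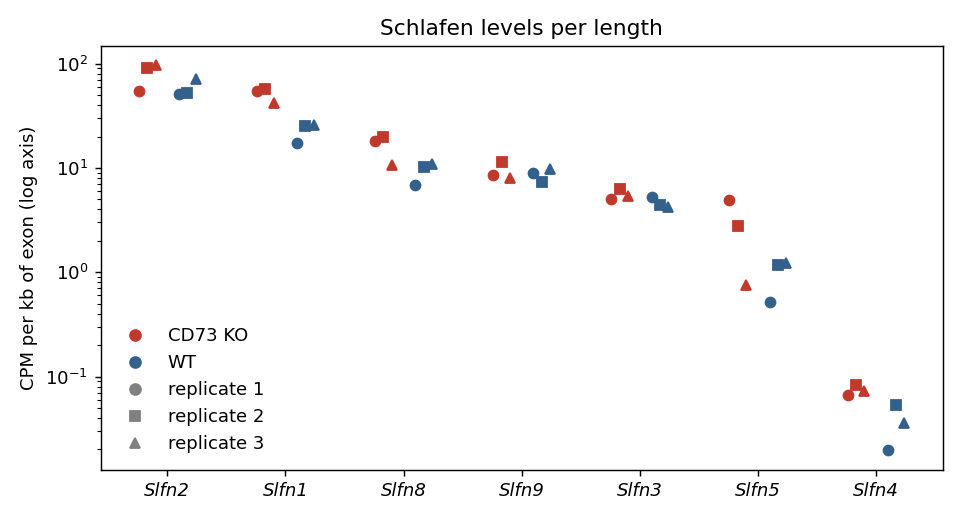
CPM per kb of exon on a log axis for the 7 Schlafen genes in falling order of their CD73 KO mean, with CD73 KO libraries left of WT libraries for each gene and a symbol per replicate number. Slfn2 and Slfn1 overlap in CD73 KO (42.2 to 96.7 CPM per kb together) and are apart in WT, and Slfn4 is far below the rest.

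The make-up of the family was read as shares of its summed counts. The 7 genes summed to 6904, 6763 and 3695 counts in CD73 KO and to 2842, 2277 and 2065 in WT, or 367, 446 and 355 CPM in CD73 KO, against 221, 242 and 294 in WT. Slfn1 took 27.8%, 23.7% and 22.2% of these counts in CD73 KO and 14.6%, 19.3% and 16.5% in WT, with no overlap between genotypes. Slfn9 took 13.8%, 15.3% and 13.6% in CD73 KO and 24.3%, 18.1% and 20.0% in WT, again without overlap, although its CPM did not separate the genotypes. Shares add to a fixed total, so a gene whose level is even loses share where another gains. The separations of Slfn1 and Slfn9 are thus not independent, and the same contrast chose the family. In CPM, 7.56% of all tested genes did not overlap with CD73 KO higher and 7.61% with CD73 KO lower. No such rate was computed for shares. Slfn2 took 24.9%, 34.0% and 45.3% in CD73 KO, against 38.8%, 36.1% and 40.6% in WT. Slfn5 took 8.49% of the family in CD73 KO replicate 1 (exact 95% binomial interval 7.84% to 9.17%) and 1.35% in CD73 KO replicate 3 (1.01% to 1.78%), against 1.48% to 3.07% in WT. These intervals cover counting error only.

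**Figure D4:**
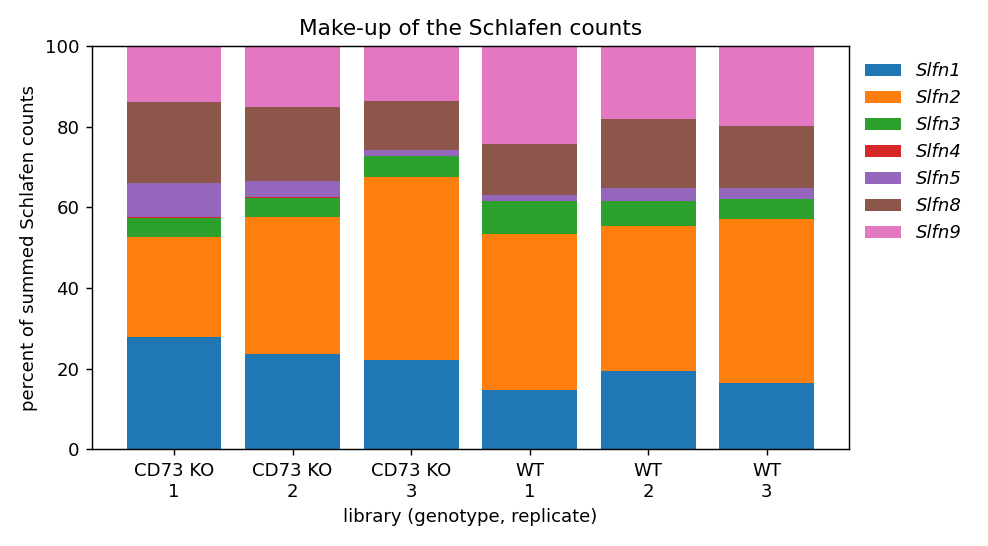
Percent of the summed counts of the 7 Schlafen genes taken by each gene, stacked to 100% per library, with CD73 KO replicates 1 to 3 left and WT replicates 1 to 3 right. The Slfn1 share is 22.2% to 27.8% in CD73 KO and 14.6% to 19.3% in WT, and the Slfn2 share in CD73 KO runs from 24.9% in replicate 1 to 45.3% in replicate 3.

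Genes around the cluster were read for comparison with the Slfn genes. The cluster, from Slfn5os to Slfn14, spans 344 kb (chromosome 11, 82942341 to 83286726). Besides the Slfn genes, 82 genes of the table lie in it or within 1 Mb of it, 25 of them tested. Of these 25, edgeR called 0 higher and 0 lower, where 0.0408% of all tested genes were called higher and 0.0163% lower. At an unadjusted p under 0.05 there were 0 higher and 1 lower, where 5.75% of all tested genes were higher and 3.89% lower. DESeq2 called 0 of them, where it called 0.81% of all genes, and their median log2 fold change was -0.01. The 25 ran from -0.85 for 1700020L24Rik to 0.82 ± 0.37 (SE) for Gm20234, the gene that overlaps Slfn2, against 0.82 ± 0.26 for Slfn8. The upper end was Gm20234 alone, and the next highest gene was Gm11425 at 0.26 ± 0.29 (SE). Slfn1 (1.18) and Slfn5 (1.59) lay above the range. Slfn8 and Slfn2 (0.47) lay within it only through Gm20234, and above Gm11425. Slfn3 (0.26) and Slfn9 (0.10) lay within the range with or without Gm20234. The nearest tested gene before the cluster, Nle1, which acts in ribosome assembly, had 29.1 ± 4.99 CPM in CD73 KO, against 32.5 ± 1.56 in WT (SD, n = 3 each). The nearest tested gene after it, the transcript AA465934, had 2.47 ± 0.654 CPM in CD73 KO, against 2.51 ± 0.785 in WT (SD, n = 3 each).

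**Figure D5:**
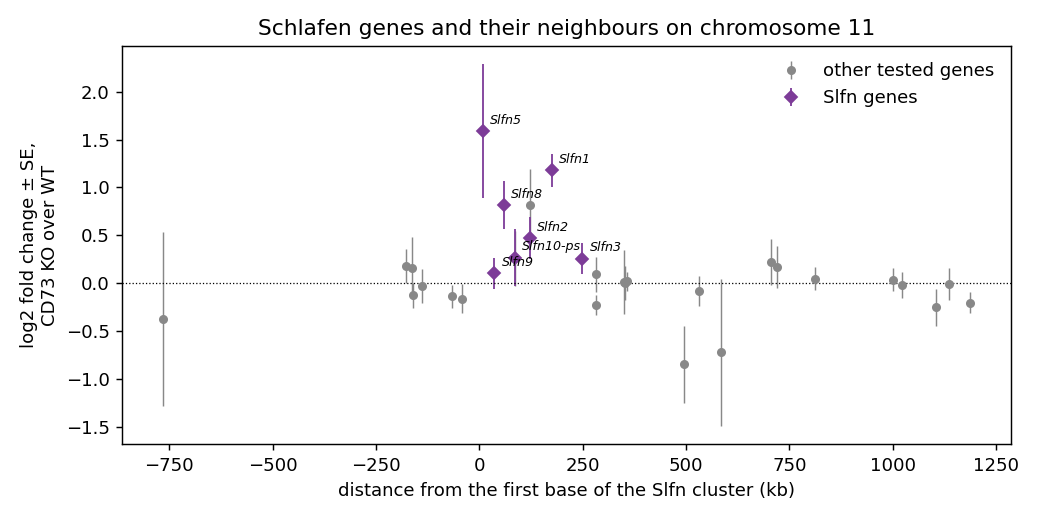
Log2 fold change ± SE, CD73 KO over WT, of tested Slfn genes (purple diamonds, Slfn10-ps included) and of the 25 other tested genes (grey) against the distance of their start from the first base of the cluster in kb. The other genes have a median of -0.01 and run from -0.85 to 0.82. Slfn5 and Slfn1 reach 1.59 and 1.18, above that range. Slfn8 (0.82), Slfn2 (0.47) and Slfn10-ps (0.27) lie within it only through Gm20234 (0.82), and above the next highest gene, Gm11425 (0.26). Slfn3 (0.26) and Slfn9 (0.10) lie within the range with or without Gm20234.

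The interferon pathway, which is known to induce Schlafen genes, was read by role. Of 50 listed genes 45 were tested, and edgeR called 0 of them, with 29 higher and 1 lower at an unadjusted p under 0.05, where 5.75% of all tested genes were higher and 3.89% lower. DESeq2 called 13 higher and 0 lower, where it called 0.646% of all genes higher. Among the ligands, Ifnb1 was at 0 counts in all 6 libraries and Ifna1, Ifna2 and Ifna4 averaged at most 0.0320 CPM in CD73 KO, against 0 in WT. Ifng, which encodes the type II ligand, averaged 49.6 CPM in CD73 KO, against 64.1 in WT, a log2 fold change of -0.37 ± 0.13 (SE), or -0.25 with the library labelled WT replicate 2 left out. The 4 receptor genes had log2 fold changes from 0.04 to 0.38, with 0.38 ± 0.12 for Ifnar2 and 0.22 ± 0.11 for Ifnar1, the chains of the type I receptor, and 0.16 ± 0.35 for the low gene Ifngr2. Ifngr2 was at -0.09 when CD73 KO replicate 3 was left out, 0.31 when CD73 KO replicate 2 was, and 0.08 when the library labelled WT replicate 2 was.

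Among 10 kinases and transcription factors, 8 lay above 0, with a median of 0.48. The factors that carry the type I signal to DNA led, with 0.71 ± 0.14 for Irf9, 1.30 ± 0.31 for Irf7 and 0.89 ± 0.24 for Stat2 (log2 fold change ± SE). The 4 brakes had a median of 0.47, with 1.73 ± 0.49 for Usp18, which holds back the receptor, 0.60 ± 0.22 for Socs1 and 0.33 ± 0.21 for Socs3. Socs3 rested on single libraries, with 0.16 when CD73 KO replicate 1 was left out and 0.53 when CD73 KO replicate 2 was. Of 27 effectors 26 were tested, all above 0, with a median of 1.02 and 14 whose libraries did not overlap, where 7.56% of tested genes did not overlap and were higher. Those of smallest p were Uba7, the activating enzyme for ISG15, at 0.87 ± 0.13, Oasl1 at 1.98 ± 0.38 and Oasl2 at 2.58 ± 0.50. The effectors summed to 1978, 1855 and 1180 CPM in CD73 KO replicates 1, 2 and 3, against 592, 1008 and 1112 CPM in the WT libraries. CD73 KO replicate 3, the library in which Slfn5 and Slfn8 lay within the WT range, was also the CD73 KO library with the lowest effector sum, although above each WT library. With the library labelled WT replicate 2 left out, the median log2 fold change was 1.14 for the effectors and 0.85 for the whole pathway, against 0.83 for the pathway with it. Without WT replicate 1, the library of lowest effector sum, these medians were 0.75 for the effectors and 0.65 for the pathway. The part of the interferon pathway in the Schlafen values was not tested.

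Some Schlafen proteins act on RNA, and other genes that restrict RNA or nucleotides were read beside them. Of 7 listed genes 6 were tested and 0 called by edgeR or DESeq2, with 4 higher at an unadjusted p under 0.05, where 5.75% of all tested genes were, and a median log2 fold change of 0.33. The 3 of smallest p were Adar, an RNA-editing enzyme, at 0.63 ± 0.19, Isg20, an exonuclease, at 0.86 ± 0.30, and Zc3hav1, which encodes the antiviral protein ZAP, at 0.28 ± 0.12. Isg20 was at 0.54 when CD73 KO replicate 1 was left out. Of the 15 genes of T cell quiescence, the state that Slfn2 helps to keep, 15 were tested and 0 called by edgeR, with 4 higher at an unadjusted p under 0.05 (5.75% of all tested genes), 1 called higher by DESeq2 (0.646% of all genes), and a median of 0.35. Btg2, Btg1 and Klf2, which restrain division or keep T cells naive, had log2 fold changes of 0.63 ± 0.15, 0.56 ± 0.15 and 1.46 ± 0.37. When CD73 KO replicate 1 was left out, Btg1 was at 0.36 and Klf2 at 0.87. The list summed to 1980, 1572 and 1417 CPM in CD73 KO, against 1161, 1192 and 1168 in WT, without overlap. Its median was 0.50 without WT replicate 3 and 0.29 without the library labelled WT replicate 2. Its part in the Schlafen values was not tested.

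Profiles over the 6 libraries were compared by the root mean square difference of log2 CPM, each gene centred on its own mean. The candidates were 9199 tested genes with a mean of at least 5 CPM. Gene models (Gm or Rik names), genes without a symbol, pseudogenes, receptor segments and other classes such as small RNAs were left out. Slfn1 lay nearest to Rnf213 (0.14), Zbp1 (0.15) and Tgtp1 (0.16), and Slfn8 to Trim12c (0.06), Eif2ak2 (0.10) and Parp14 (0.11), of which Zbp1, Eif2ak2 and Parp14 are on the effector list. Slfn5 had no close profile, its nearest being Ddx60 (0.31), H2-T24 (0.38) and S1pr1 (0.43). Slfn2 lay nearest to Tmc8 (0.08), Zfp626 (0.09) and Lax1 (0.09), Slfn3 to Swap70 (0.05), Rfesd (0.06) and the receptor gene Ifnar1 (0.07), and Slfn9 to Usp54 (0.02), Brca1 (0.04) and Slf2 (0.04). Small distances come easily to genes that vary little, as Slfn9 and Slfn3 do. All profiles come from the same 6 libraries and share their depth and genotype, and these distances are descriptions without a test.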

How the data were processed

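The deposited table holds unnormalised counts for 49671 Ensembl genes in 6 libraries. The submitters' processing notes name fastp, HISAT2, featureCounts and mm10. The sources used here do not give versions, the annotation release, the strand setting or how reads with several matches were treated, so reads of near copies or of antisense partners may be split. Symbols were matched for 49326 identifiers. Coordinates and exon lengths come from GENCODE M21 on GRCm38.

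Genes were filtered with filterByExpr (minimum count 10, minimum total count 15), scaled with TMM and fitted with the quasi-likelihood F-test of edgeR 4.0.16 (robust, legacy fit) in R 4.3.3, with Benjamini-Hochberg adjustment over 12242 genes and 0.05 as the threshold. The fit was tested on simulated data. SEs were derived from the F statistic (absolute log2 fold change over the root of F). Alternatives were RLE factors, library size alone, no filter, 1 CPM in 3 libraries, each library left out, a block on the replicate number, the newer edgeR 4 method, a fit that is not robust, DESeq2 1.42.0 and limma-voom (limma 3.58.1). Transcripts were compared with blastn 2.17.0 (E-value limit 1e-20), best alignment per pair, in place of a planned comparison of proteins.

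Named genes were the members, other Slfn genes, members of the lists past the threshold or otherwise the 3 of smallest p, the nearest tested neighbours, the 3 nearest profiles and Nt5e. Other named genes (the ligands at or near 0, Gm20234, Gm11425, 1700020L24Rik) were chosen after their values were seen. Members and lists were chosen with earlier results of these data known.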

Additional observations from a re-analysis of the deposited data

How the results depend on the processing

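Without a filter on low counts edgeR called 298 genes, 3 Schlafen genes (Slfn1, Slfn8 and Slfn2), 20 interferon pathway genes and 3 quiescence genes. DESeq2 called 99, 1, 13 and 1 of these. With the filter edgeR called 7 genes and 0 of each list. Leaving out 1 library gave 4 to 8 genes in all, the 4 without CD73 KO replicate 2 or the library labelled WT replicate 2, with 0 Schlafen genes, 0 to 1 interferon pathway genes, 0 quiescence genes and a quiescence median of 0.29 to 0.50. The median of the effectors ran from 0.75 to 1.29 over the same fits.

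Fold changes of the members (log2, 15 alternatives) lay between 1.00 and 1.29 for Slfn1, 0.32 to 0.68 for Slfn2, 0.17 to 0.36 for Slfn3, 0.91 to 2.02 for Slfn5 and 0.62 to 1.04 for Slfn8, and Slfn1 passed the threshold in 2 of them. Without 1 library, Slfn9 lay between -0.0688 (without CD73 KO replicate 2) and 0.191, and was -0.01 without WT replicate 2. Over the same fits Ifngr2 ran from -0.0918 (without CD73 KO replicate 3) to 0.311, Usp54 from -0.0522 to 0.228, Brca1 from -0.0676 to 0.191 and Slf2 from -0.0481 to 0.189 (lowest without CD73 KO replicate 2; Brca1 was also -0.01 without WT replicate 2), and AA465934 from -0.21 (without CD73 KO replicate 1 or WT replicate 2) to 0.213, with -0.0026 by DESeq2. The cause was not tested. The order of levels per length was the same with the longest transcript or the library total, and 12 of 18 nearest profiles were shared with the largest absolute difference as the measure.

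No label says whether the replicate numbers pair the libraries. Deviations from the genotype mean correlated at 0.15, -0.17 and 0.01 across 12242 genes for same-numbered libraries. For libraries of different numbers they correlated at -0.32 to 0.36. With 3 libraries per genotype, each centred on its own mean, these values cannot decide whether the libraries are paired. With the replicate number as a block edgeR called 5 genes, 0 of them Schlafen genes, and the log2 fold change was 1.18 for Slfn1 and 1.36 for Slfn5.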
